A study of Mus musculus with 6 samples.

Results

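Ribosomes are built from ribosomal RNA and a large set of proteins, and a mouse cell makes separate kinds for its cytosol and its mitochondria. Cytosolic ribosomes translate nuclear messages, and their proteins are named Rpl (large subunit) and Rps (small subunit). Mitochondrial ribosomes translate the few messages of the mitochondrial genome, all of which encode subunits of the respiratory chain or of ATP synthase. Their proteins, named Mrpl and Mrps, are also encoded in the nucleus and are imported. Messages of cytosolic ribosomal proteins are known as TOP messages because they begin with a run of pyrimidines, through which mTOR signalling adjusts their translation to growth.

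The genes described here are 139 of the 19938 genes measured, chosen by symbol. The cytosolic set holds 62 genes, 38 of the large and 24 of the small subunit, and the mitochondrial set holds 77 genes, 48 of the large and 29 of the small subunit. S6 kinases and annotated pseudogenes were left out, and each gene was read through the brightest probe set that the array annotation assigns to it alone. The name rule also took in Rps19bp1, which encodes a binding protein of Rps19, and Rps23rg1, a retrogene, and neither is a ribosomal subunit. Of 88 cytosolic protein-coding genes that RefSeq lists under such names, 20 appeared only on probe sets shared with other symbols, among them Rpl3, Rpl11 and Rps24, and others were not analysed here. Of 78 mitochondrial genes, Mrpl53 was the single one that appeared only on a shared probe set.

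Expression was measured on Affymetrix arrays in total RNA of the ascending aorta (3 arrays) and the descending aorta (3 arrays) of untreated C57BL/6 wild-type embryos collected 13.5 days postcoitum. The study compared these segments because their smooth muscle has different embryonic origins, largely neural crest in the ascending and mesoderm in the descending aorta. Each group is labelled as biological replicates, with no embryo, litter or pool named, so the p-values rest on the spread among these samples, which may be partly technical. The values are log2 expression after RMA, which makes the distributions of all arrays alike, so a rise or fall of most genes at once could not appear in them. The tissue is a mixture of cells, in which fewer cells of a type and less RNA per cell cannot be told apart.

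Of the 6 arrays, 2 stood apart, in different ways. The array labelled ascending replicate 3 lay with the descending arrays (Pearson's r across genes of 0.9975 with descending replicate 3, against 0.9907 and 0.9858 with ascending replicates 1 and 2). Its log2 level of Hoxc6, a positional gene of the trunk, was 8.89, where ascending replicates 1 and 2 gave 5.72 and 6.00 and the descending arrays gave 8.74 to 9.02. Descending replicate 1 was low in Xist, which coats the silent X chromosome of female cells, at 5.80, while the remaining arrays lay between 10.1 and 11.2. It was also the highest array for the Y-linked genes Kdm5d (8.73), Uty (8.27) and Eif2s3y (9.79). The remaining arrays gave 7.19 to 8.16, 6.82 to 7.51 and 8.29 to 9.51 for these genes, beside their high Xist. The part of sex in the ribosomal protein results was not tested. The smooth muscle actin gene Acta2 was at 13.6 to 13.8 on all 6 arrays. Ascending replicate 2 also correlated less with the rest, at 0.983 to 0.987 with all arrays but ascending replicate 1. Results are given with and without ascending replicate 3 and descending replicate 1.

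Both families had slightly higher mean levels in ascending aorta, and no single member passed the test over 6 arrays. Of the 139 genes, 123 (88.5%) had a higher mean in ascending than in descending aorta, against 43.8% of all genes. The median log2 difference, ascending minus descending, was 0.18 for the cytosolic genes and 0.18 for the mitochondrial genes, against -0.021 for all genes. Limma called 0 of the 139 at an adjusted p of 0.05, as it called 0 of all genes (0%), and the smallest adjusted p of a member was 0.53. At an unadjusted p of 0.05, 30 members were higher in ascending aorta, where 3.96% of all genes were, and 0 were lower, where 5.33% of all genes were. The test without moderated variance also called 0 genes. Of the 30, 23 were mitochondrial and 7 were cytosolic.

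The subunits gave similar numbers. The median difference was 0.17 for the cytosolic large subunit (33 of 38 genes with a higher mean in ascending aorta), 0.21 for the cytosolic small subunit (22 of 24), 0.18 for the mitochondrial large subunit (42 of 48) and 0.20 for the mitochondrial small subunit (26 of 29). The interquartile range of the differences was 0.075 to 0.27 for the cytosolic and 0.083 to 0.29 for the mitochondrial genes. The extremes were Rps21 at 0.91 and Mrps27 at -0.15. Leaving out Rps19bp1 and Rps23rg1 left the cytosolic median at 0.18.

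The size of the difference depended on descending replicate 1. That array was the lowest of the 6 for 49 of the 62 cytosolic genes (79.0%) and for 43 of the 77 mitochondrial genes (55.8%), against 15.7% of all genes. Relative to each gene's mean over the 6 arrays, the cytosolic median on ascending replicates 1, 2 and 3 was 0.10, 0.098 and 0.049, and on descending replicates 1, 2 and 3 it was -0.27, -0.0014 and 0.030. The mitochondrial median on the ascending arrays was 0.12, 0.083 and 0.067, and on the descending arrays it was -0.17, -0.079 and 0.012. Every ascending array thus lay above every descending array by both medians, and the gap to descending replicate 3 was the narrowest. The medians of all genes stayed between -0.015 and 0.041 on the same arrays.

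**Figure D1:**
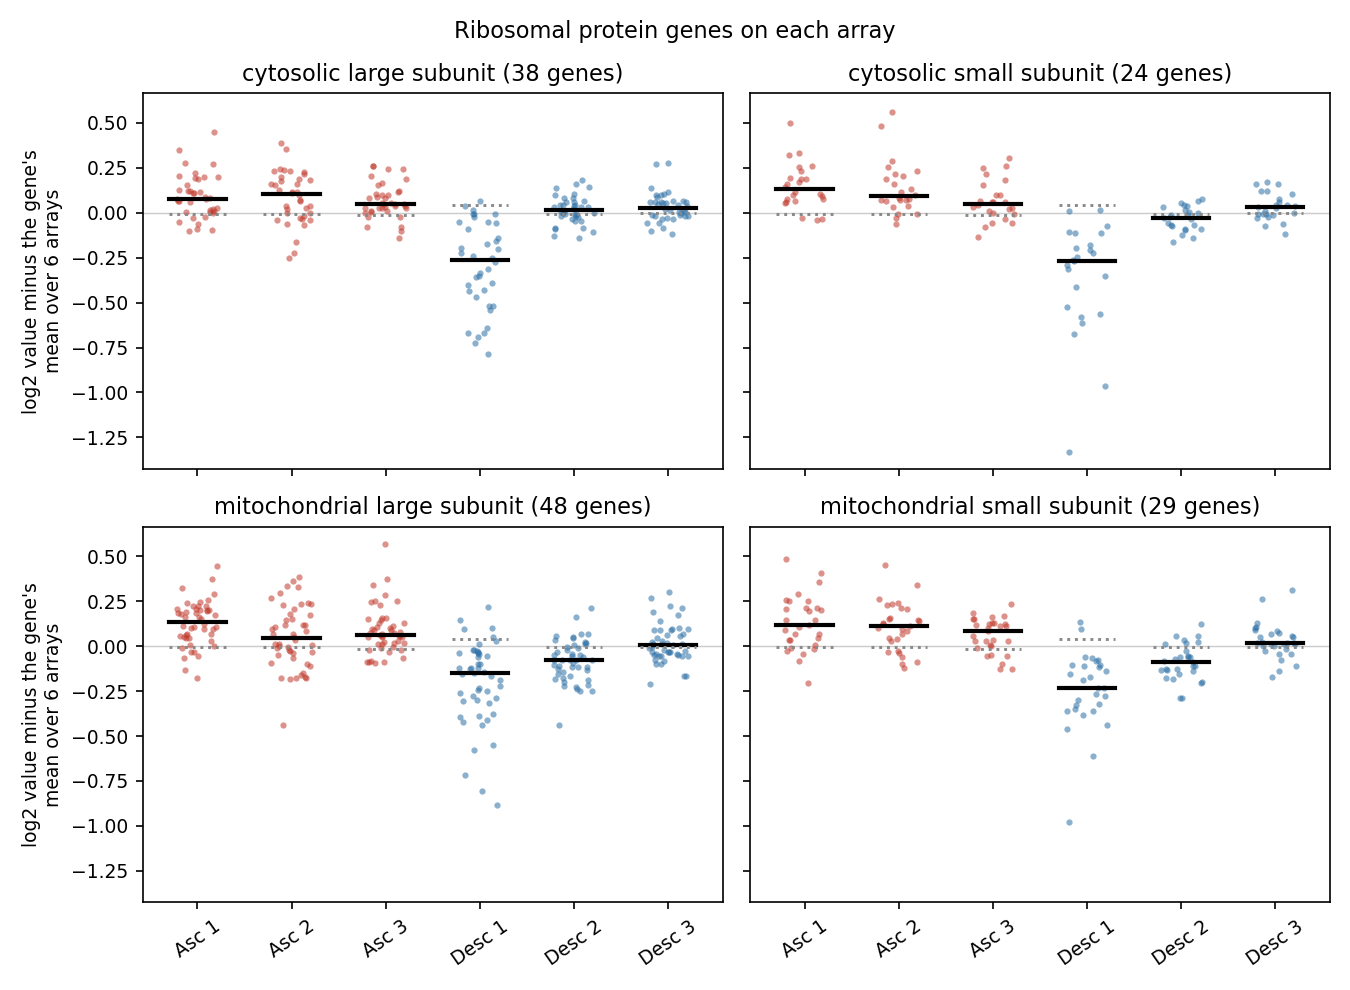
Log2 value of each ribosomal protein gene minus its mean over the 6 arrays (vertical axis), by array (horizontal axis) and subunit (4 panels). Points are genes, red for ascending (Asc 1 to 3) and blue for descending aorta (Desc 1 to 3), black bars are medians over the genes of a panel and dotted bars are medians over all genes. Descending replicate 1 is lowest in every panel, at medians of -0.26 and -0.27 for the cytosolic and -0.15 and -0.23 for the mitochondrial subunits.

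Without descending replicate 1 the median difference was 0.077 for the cytosolic and 0.12 for the mitochondrial genes, against -0.0050 for all genes. A higher mean in ascending aorta was then found for 45 of 62 cytosolic and 65 of 77 mitochondrial genes, where 48.5% of all genes had one. By subunit the medians were 0.055 (cytosolic large), 0.10 (cytosolic small), 0.11 (mitochondrial large) and 0.16 (mitochondrial small). At an unadjusted p of 0.05, 5 cytosolic and 9 mitochondrial members were higher in ascending aorta, against 2.14% of all genes, and 0 were lower, against 2.16%. Limma called 0 genes in that fit, members or others (0%). Descending replicate 1 was singled out by its values, so unadjusted p-values of fits without it may be too small.

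Ascending replicate 3, which lay with the descending arrays across all genes, lay above all 3 descending arrays for 81 of the 139 genes (58.3%), against 19.8% of all genes. Set against descending replicates 2 and 3 alone, it was above both for 83 (59.7%), against 32.1% of all genes. Its median distance from their mean was 0.047 for the cytosolic and 0.11 for the mitochondrial genes. Ascending replicates 1 and 2 lay at 0.10 and 0.073 for the cytosolic genes and at 0.18 and 0.11 for the mitochondrial genes by the same measure.

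Leaving out ascending replicate 3 gave medians of 0.17 for the cytosolic and 0.19 for the mitochondrial genes. Limma then called 933 genes (4.68%), 412 of them higher in ascending aorta (2.07%). Of the members, 0 cytosolic and 2 mitochondrial genes passed, Mrps28 and Mrpl14, both higher in ascending aorta. At an unadjusted p of 0.05, 34 members were higher in ascending aorta (10 cytosolic and 24 mitochondrial), against 7.98% of all genes, and 1 member, Mrpl49, was lower (-0.21), against 9.27% of all genes. That array was left out because of its values, so p-values of this fit are likely too small. With descending replicate 1 left out as well, 469 genes passed (2.35%), Mrps28 was the member among them, and the medians were 0.0845 for the cytosolic and 0.12 for the mitochondrial genes.

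**Figure D2:**
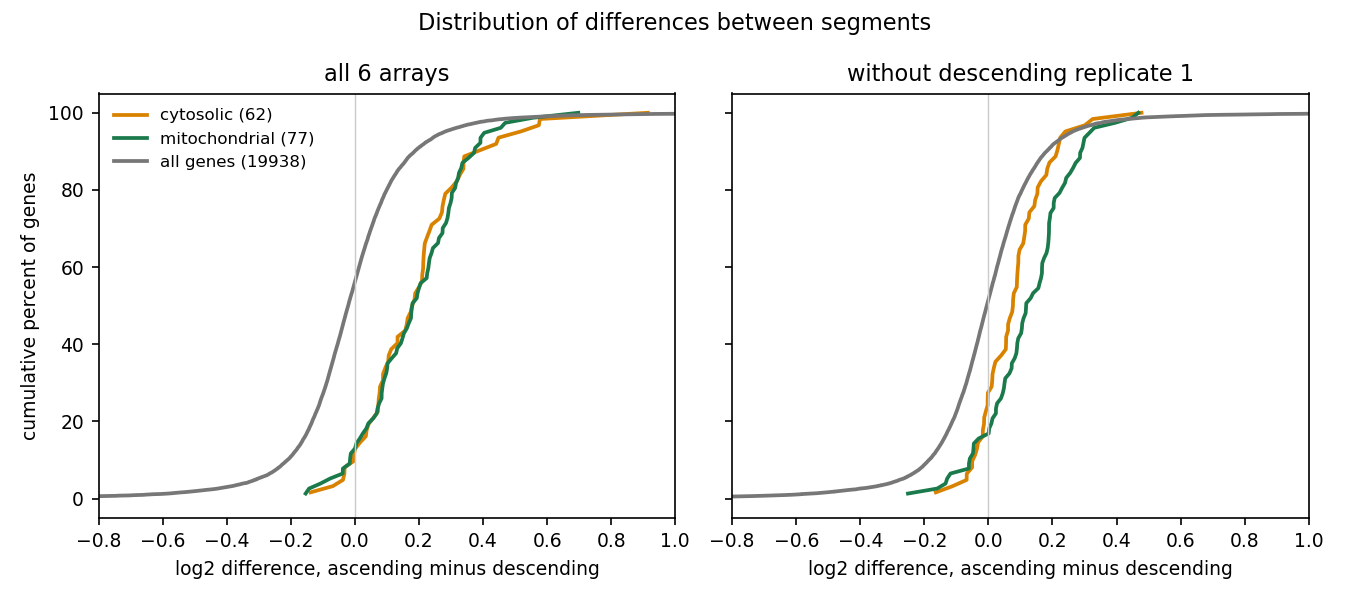
Cumulative percent of genes (vertical axis) by log2 difference, ascending minus descending (horizontal axis), for the cytosolic (orange), mitochondrial (green) and all genes (grey), over all 6 arrays (left) and without descending replicate 1 (right). Over 6 arrays both sets lie to the right of all genes, with medians of 0.18 against -0.021, and without descending replicate 1 the medians are 0.077 (cytosolic) and 0.12 (mitochondrial) against -0.0050.

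Groups that did not overlap were counted in the same way. All 3 ascending arrays lay above all 3 descending arrays for 45 members, 21 cytosolic and 24 mitochondrial, against 5.87% of all genes. The opposite held for 1 member, Rpl7l1, against 8.95% of all genes. Without descending replicate 1 the counts were 48 members above, against 10.5% of all genes, and 5 below, against 11.8%. Without ascending replicate 3, 64 members had all ascending arrays above all descending arrays, against 15.6% of all genes.

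The promoters of 10 members are shown here because ribosomal protein messages are grouped by how they begin. They were taken by smallest p in each subunit among members matched to a promoter. Mrpl13, Mrpl54 and Mrps34, which had smaller p than some members shown, are not among them. RefSeq promoter sequences of GRCm38.p6 were matched to 118 of the 139 members, 50 cytosolic and 68 mitochondrial. The stretches run from 40 bases before to 20 bases after the annotated start. Capitals mark a run of at least 5 pyrimidines that begins with C within 10 bases of that start, and a sequence with no capitals has no such run. For a gene with several promoters, the one with the longest run was taken.
Rps21, chr2:180257339-180257398, plus strand: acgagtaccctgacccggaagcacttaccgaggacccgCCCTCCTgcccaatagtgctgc
Rps9, chr7:3704001-3704060, plus strand: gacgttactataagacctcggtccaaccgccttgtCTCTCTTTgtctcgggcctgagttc
Rps12, chr10:23787190-23787249, minus strand: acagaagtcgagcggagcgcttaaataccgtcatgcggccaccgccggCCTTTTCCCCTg
Rpl27a, chr7:109519155-109519214, plus strand: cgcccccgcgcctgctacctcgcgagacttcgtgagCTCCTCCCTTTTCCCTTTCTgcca
Rpl26, chr11:68901526-68901585, plus strand: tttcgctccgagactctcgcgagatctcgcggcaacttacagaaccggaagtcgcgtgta
Rpl13, chr8:123102310-123102369, plus strand: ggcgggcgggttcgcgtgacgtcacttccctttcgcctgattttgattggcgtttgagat
Mrps12, chr7:28741802-28741861, minus strand: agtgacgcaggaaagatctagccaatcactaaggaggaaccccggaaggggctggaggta
Mrps24, chr11:5707682-5707741, minus strand: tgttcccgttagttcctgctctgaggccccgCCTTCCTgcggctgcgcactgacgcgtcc
Mrpl2, chr17:46646189-46646248, plus strand: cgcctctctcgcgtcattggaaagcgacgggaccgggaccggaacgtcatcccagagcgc
Mrpl30, chr1:37890437-37890496, plus strand: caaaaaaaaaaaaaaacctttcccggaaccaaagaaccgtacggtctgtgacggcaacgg
The run measured 20 bases in Rpl27a, 11 in Rps12, 8 in Rps9 and 7 in each of Rps21 and Mrps24. In the other 5 promoters no run of at least 5 bases began with C in that window. Pyrimidine runs that begin farther from the start, as in Rpl13, were not counted.

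Such a run stood at the start of 31 of 59 cytosolic promoters (52.5%) and 31 of 74 mitochondrial promoters (41.9%), against 31.2% of all 19116 promoters, some genes having several. The order of the families depended on the length asked for: a run of at least 8 bases stood in 27.1% of cytosolic and 6.76% of mitochondrial promoters against 8.23% of all promoters, and a run of at least 4 bases in 62.7% and 66.2% against 48.7%. Annotated starts can be off by several bases, so absence of a run in this window says nothing about the message itself. Within the whole 300 bases, the letters CCGGAAG, the core bound by ETS factors such as GABP, occurred on either strand in 32.2% of cytosolic and 33.8% of mitochondrial promoters, against 12.1% of all promoters. The letters GCATGCG, part of the motif of NRF1, a regulator of nuclear genes for mitochondria, occurred in 8.47% of cytosolic and 10.8% of mitochondrial promoters, against 4.78% of all promoters. The letters ATGGCGG, part of the motif of YY1, occurred in 15.3% of cytosolic and 16.2% of mitochondrial promoters, against 5.47% of all promoters. None of these strings contains another, and they are matches of letters that do not show binding.

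In the cytosolic large subunit, the 5 members with the smallest p were Rpl26, Rpl13, Rpl27a, Rpl34 and Rpl8. Rpl26 (probe set 10377368), whose protein sits near the exit of the nascent chain, was at 11.15, 11.16 and 10.92 on ascending replicates 1 to 3, against 10.59, 10.84 and 10.89 on descending replicates 1 to 3. All ascending arrays were above all descending arrays, and the gap between ascending replicate 3 and descending replicate 3 was small. The difference was 0.30 ± 0.11 (SE, n = 3 each; limma, unadjusted p = 0.0282, adjusted p = 0.53), and 0.21 without descending replicate 1.

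Rpl13 (10531340) was at 12.37, 12.41 and 12.06 in ascending aorta, against 11.33, 11.93 and 12.02 in descending aorta, a difference of 0.52 ± 0.19. Rpl27a (10487643), whose promoter carries the long pyrimidine run shown above, was at 12.84, 12.75 and 12.44 in ascending aorta, against 11.61, 12.37 and 12.33 in descending aorta, a difference of 0.57 ± 0.21. In both genes the groups did not overlap, descending replicate 1 was far below the rest, and ascending replicate 3 was the lowest ascending array. Without descending replicate 1 the differences were 0.30 for Rpl13 and 0.33 for Rpl27a.

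Rpl34 (10502196) was at 11.15, 11.15 and 11.20 in ascending aorta, against 10.27, 10.98 and 10.93 in descending aorta. The ascending arrays agreed closely, and ascending replicate 3 was the highest of them. The difference was 0.44 ± 0.18, and 0.22 without descending replicate 1. Rpl8 (10425018), a protein near the peptidyl transferase centre, was at 12.93, 12.97 and 12.83 in ascending aorta, against 12.22, 12.75 and 12.74 in descending aorta, a difference of 0.34 ± 0.15, and 0.16 without descending replicate 1. The adjusted p was 0.53 to 0.54 for these 5 genes.

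In the cytosolic small subunit the largest difference of all members was that of Rps21. Rps21 (10479362) was at 11.70, 11.76 and 11.50 in ascending aorta, against 9.86, 11.03 and 11.31 in descending aorta. Descending replicate 1 lay more than 1 log2 unit below every other array, and the groups did not overlap. The difference was 0.91 ± 0.34 (unadjusted p = 0.0279), and 0.48 ± 0.13 without descending replicate 1 (unadjusted p = 0.00882, adjusted p = 0.84).

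Rps9 (10569069), a protein at the entry of the message channel, had no such low array, at 12.36, 12.50 and 12.36 in ascending aorta, against 12.11, 12.15 and 12.28 in descending aorta. Its difference was 0.23 ± 0.084, and 0.19 without descending replicate 1. Rps12 (10475435) was at 12.45, 12.47 and 12.40 in ascending aorta, against 11.54, 12.14 and 12.29 in descending aorta, a difference of 0.45 ± 0.18. The groups of both genes did not overlap.

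Rps29 (10400635), a small zinc-binding protein of the subunit's head, was at 12.65, 12.62 and 12.59 in ascending aorta, against 11.37, 12.26 and 12.49 in descending aorta, a difference of 0.58 ± 0.26. Rps13 (10567163) was at 12.10, 11.87 and 11.92 in ascending aorta, against 11.15, 11.74 and 11.83 in descending aorta, a difference of 0.39 ± 0.18. Again all ascending arrays were above all descending arrays. Without descending replicate 1 the differences were 0.22 for Rps12, 0.24 for Rps29 and 0.18 for Rps13.

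**Figure D3:**
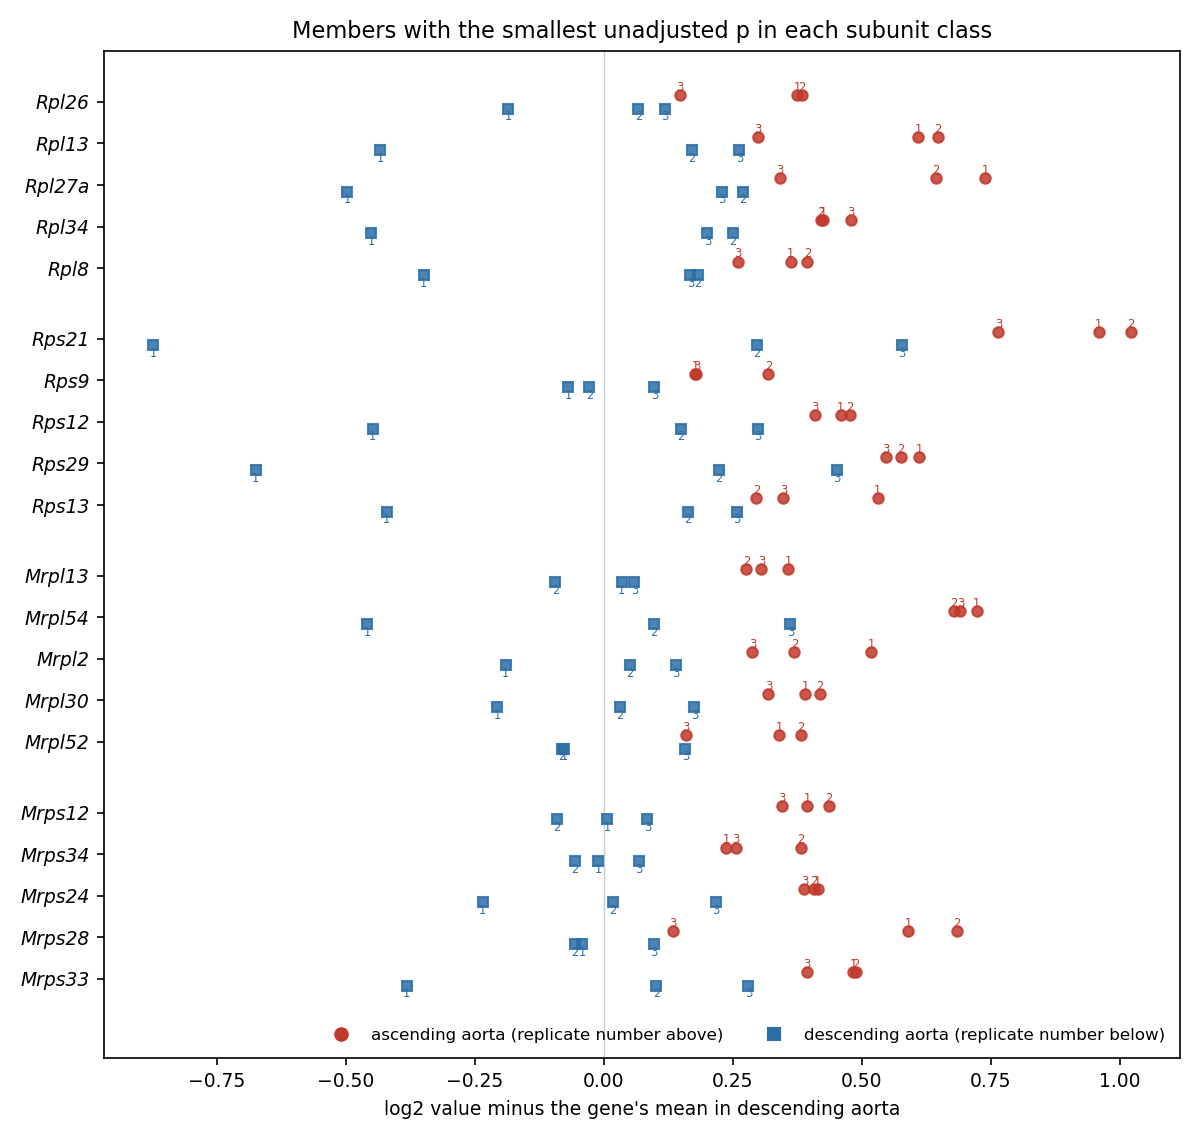
Log2 value of the 5 members with the smallest p in each subunit class minus the gene's mean in descending aorta (horizontal axis), with 1 row per gene. Red circles are the 3 ascending and blue squares the 3 descending arrays, with the replicate number beside each. The groups do not overlap in any row, and descending replicate 1 is far to the left in Rps21, Rps29, Rpl27a and Mrpl54 but not in Mrps12, Mrps34 or Mrpl13.

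In the mitochondrial large subunit the smallest p belonged to Mrpl13. Mrpl13 (10428690) was at 9.41, 9.33 and 9.35 in ascending aorta, against 9.08, 8.96 and 9.11 in descending aorta, and here descending replicate 2 was the lowest array. The difference was 0.31 ± 0.078 (unadjusted p = 0.00436, adjusted p = 0.53), and 0.33 without descending replicate 1. Mrpl54 (10371107) was at 10.54, 10.50 and 10.51 in ascending aorta, against 9.36, 9.91 and 10.18 in descending aorta, a difference of 0.70 ± 0.19. Its ascending arrays were nearly identical while its descending arrays spread widely, and without descending replicate 1 the difference was 0.47.

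Mrpl2 (10445565), the mitochondrial relative of Rpl8, was at 9.54, 9.39 and 9.31 in ascending aorta, against 8.84, 9.08 and 9.16 in descending aorta, a difference of 0.39 ± 0.11. Mrpl30 (10345620) was at 10.52, 10.55 and 10.45 in ascending aorta, against 9.92, 10.16 and 10.30 in descending aorta, a difference of 0.38 ± 0.11. In both genes the groups did not overlap. Mrpl52 (10415045) was at 10.60, 10.64 and 10.42 in ascending aorta, against 10.18, 10.18 and 10.42 in descending aorta, so that the groups touched at replicate 3 of each, and the difference was 0.29 ± 0.10. Without descending replicate 1 the differences were 0.30 for Mrpl2, 0.27 for Mrpl30 and 0.26 for Mrpl52.

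Mrpl14 (10445430), one of the members called without ascending replicate 3, was at 10.04, 10.11 and 9.69 in ascending aorta, against 9.54, 9.60 and 9.70 in descending aorta. Ascending replicate 3 lay within the descending range, so the groups overlapped. Over 6 arrays the difference was 0.33 ± 0.12, and without ascending replicate 3 it was 0.46 ± 0.10 (limma, adjusted p = 0.0362).

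In the mitochondrial small subunit, Mrps12 had the smallest p of all 139 members. Mrps12 (10561513), a protein of the decoding centre, was at 8.15, 8.19 and 8.10 in ascending aorta, against 7.76, 7.66 and 7.84 in descending aorta. The groups were well apart, with ascending replicate 3 and descending replicate 1 each close to its own group. The difference was 0.39 ± 0.079, a 1.31-fold ratio (unadjusted p = 0.00136, adjusted p = 0.53), 0.40 without descending replicate 1, and 0.42 without ascending replicate 3 (adjusted p = 0.0525).

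Mrps34 (10442638) was at 8.43, 8.58 and 8.45 in ascending aorta, against 8.19, 8.14 and 8.26 in descending aorta, a difference of 0.29 ± 0.080, and 0.29 without descending replicate 1. Mrps24 (10383999) was at 9.89, 9.88 and 9.86 in ascending aorta, against 9.24, 9.49 and 9.69 in descending aorta, a difference of 0.40 ± 0.12, and 0.29 without descending replicate 1. Mrps33 (10563829) was at 10.31, 10.31 and 10.22 in ascending aorta, against 9.44, 9.92 and 10.10 in descending aorta, a difference of 0.46 ± 0.16, and 0.26 without descending replicate 1. The groups of these genes did not overlap.

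Mrps28 (10497209) was at 8.92, 9.02 and 8.47 in ascending aorta, against 8.29, 8.28 and 8.43 in descending aorta. Ascending replicate 3 lay just above the descending arrays and well below the other ascending arrays. The difference was 0.47 ± 0.15 over 6 arrays, 0.45 without descending replicate 1 and 0.64 ± 0.10 without ascending replicate 3 (limma, adjusted p = 0.0105). With both arrays left out it was 0.62 (adjusted p = 0.0434).

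Some members had a lower mean in ascending aorta. Rpl7l1 (10451472), a relative of Rpl7 known in human cells from precursors of the large subunit, was at 11.48, 11.48 and 11.47 in ascending aorta, against 11.57, 11.73 and 11.55 in descending aorta. It was the single member with all ascending arrays below all descending arrays, and its difference was -0.14 ± 0.079 (unadjusted p = 0.122). Its parent Rpl7 was at 12.19, 12.10 and 12.36 in ascending aorta, against 11.39, 12.26 and 12.40 in descending aorta, with overlapping groups. Mrps27 differed by -0.15, Mrpl49 by -0.14 and Mrpl10 by -0.11, all with overlapping groups.

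The paralogs that are known mainly from muscle or testis gave low signal and overlapping groups. Rpl3l, the striated muscle relative of Rpl3, was at 5.559, 5.656 and 5.397 in ascending aorta, against 5.516, 5.505 and 5.605 in descending aorta, below the 25th percentile of all genes (6.16). Rpl39l, known from male germ cells, was at 4.76, 5.02 and 4.68 in ascending aorta, against 4.77, 4.77 and 4.68 in descending aorta. Rpl10l, another gene known from testis, was at 7.044, 6.602 and 6.969 in ascending aorta, against 6.796, 6.911 and 6.798 in descending aorta. The differences of these 3 genes lay between -0.0045 and 0.078. Rps27l, a p53-responsive relative of Rps27, was at 11.740, 11.644 and 11.817 in ascending aorta, against 11.004, 11.474 and 11.741 in descending aorta. Rps4l, a relative of Rps4x, was at 10.65, 10.63 and 10.62 in ascending aorta, against 10.39, 10.57 and 10.71 in descending aorta, and the groups of both genes overlapped.

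The X-linked members were looked at because descending replicate 1 differed in Xist. Rpl10 differed by 0.00073, Rps4x by 0.043 and Rpl36a by 0.21. Rpl36a was at 12.88, 12.94 and 12.76 in ascending aorta, against 12.35, 12.75 and 12.84 in descending aorta, with the low value again on descending replicate 1. The groups overlapped in all 3 genes, and without that array Rpl36a differed by 0.061.

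The stalk of the large subunit recruits elongation factors. Its members Rplp0 and Rplp1 differed by 0.074 and -0.037, with overlapping groups, and a dimmer probe set of Rplp1 gave 0.12. Rplp2 was at 7.15, 7.12 and 7.35 in ascending aorta, against 6.57, 7.19 and 7.14 in descending aorta. In the mitochondrial stalk, Mrpl12 differed by 0.16 and Mrpl10 by -0.11, and Mrpl11, at its base, was at 9.69, 9.35 and 10.09 in ascending aorta, against 8.64, 9.58 and 9.79 in descending aorta. Mrpl11 differed by 0.37, with an SD of 0.37 on the ascending and 0.61 on the descending arrays. Without descending replicate 1 its difference was 0.024.

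Members known for roles in disease or development are given next. Rpl38, whose loss in mice disturbs axial patterning through the translation of Hox messages, was at 13.093, 13.261 and 13.003 in ascending aorta, against 12.868, 12.920 and 13.010 in descending aorta, a difference of 0.19 ± 0.092. Rps19, mutated in human Diamond-Blackfan anaemia, was at 12.37, 12.43 and 12.08 in ascending aorta, against 12.10, 12.20 and 12.09 in descending aorta, a difference of 0.16 ± 0.11. Ascending replicate 3 overlapped the descending arrays in both. Rpl5, which binds 5S RNA and can stabilise p53, differed by 0.17, and 0.022 without descending replicate 1. Rps6, the substrate of the S6 kinases, differed by -0.0036, and Rpl10a by 0.016.

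The 3 relatives Mrps18a, Mrps18b and Mrps18c share an ancestor and occupy separate places in the mitochondrial ribosome. Mrps18a differed by 0.20 with groups that did not overlap, and Mrps18b by 0.042 and Mrps18c by 0.32 with groups that overlapped. Mrps36, since assigned to the oxoglutarate dehydrogenase complex, was at 7.96, 7.89 and 7.63 in ascending aorta, against 6.57, 7.57 and 7.68 in descending aorta. Its difference of 0.56 ± 0.28 was 0.20 without descending replicate 1.

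The brightest cytosolic genes differed least. Among 15 genes with a mean log2 value of 13 or more, the median difference was 0.074, and -0.0016 without descending replicate 1. Among 32 genes between 11 and 13 it was 0.25, and 0.11 without that array, and 31 of the 32 had a higher mean in ascending aorta. Among 15 genes under 11 it was 0.16, and 0.061 without that array. Rpl10, Rpl28, Rps15 and Rps6 were the brightest members of their subunits, at 13.5 to 13.9 on all arrays, and differed by 0.00073, -0.033, 0.10 and -0.0036. The brightest mitochondrial members, Mrpl10, Mrpl40, Mrps15 and Mrps21, differed by -0.11, -0.038, -0.013 and 0.30. The mitochondrial medians were closer by signal, at 0.17 for 26 genes with a mean of 10 or more and 0.20 for 51 genes under 10. Without descending replicate 1 these medians were 0.10 and 0.16. The dimmest cytosolic members of their subunits, Rpl39l, Rpl3l, Rps23rg1 and Rps15a, differed by 0.078, -0.0045, 0.072 and 0.16. The dimmest mitochondrial members, Mrpl44, Mrpl47, Mrps36 and Mrps12, differed by 0.23, 0.30, 0.56 and 0.39. Whether the brightest probe sets were near saturation was not tested, since the files hold no raw signals.

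**Figure D4:**
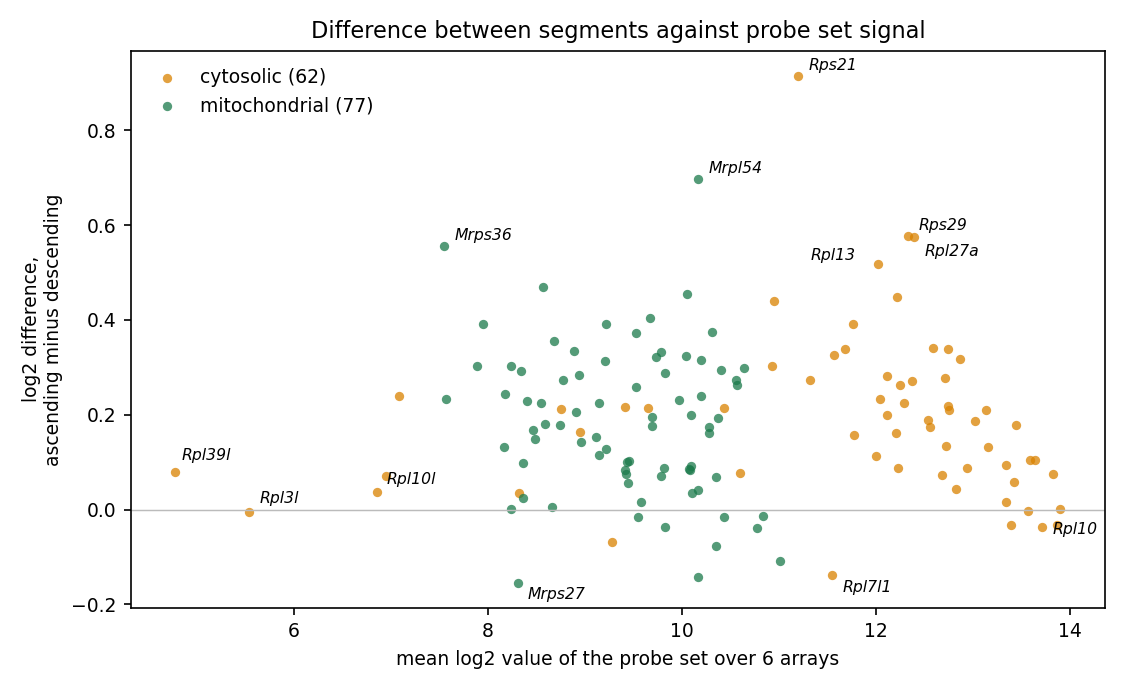
Log2 difference, ascending minus descending (vertical axis), against the mean log2 value of the probe set over 6 arrays (horizontal axis) for the 62 cytosolic (orange) and 77 mitochondrial genes (green). Each point is a gene. Differences are near 0 at the bright end, where Rpl10 lies, and reach 0.91 for Rps21 between 11 and 13.

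Probe sets of 1 gene could be compared with each other for 38 cytosolic genes. Cytosolic ribosomal protein genes have many processed pseudogenes, so probe sets of a gene may share probes or target copies, and their agreement is not independent. Over all 214 probe sets that carry a single cytosolic symbol, 195 (91.1%) had a higher mean in ascending aorta, with a median difference of 0.23, and 0.089 without descending replicate 1. Some of them gave identical values on every array and are counted separately in these numbers. Rps12 had 14 probe sets (8 with distinct values) with differences of 0.41 to 0.55, Rpl23a had 13 (11 distinct) with 0.31 to 0.37, and Rpl13 had 9 with 0.51 to 0.59. Signs disagreed in 6 of the 38 genes. The probe sets of Rpl10, Rpl28, Rps2, Rps4x and Rps6 differed by -0.033 to 0.095, and those of Rplp1 by -0.037 and 0.12. For Rps18 the brightest probe set, used here, gave 0.21 and another gave 0.44. In 29 genes with at least 3 distinct probe sets, the brightest gave a smaller difference than the dimmest in 24, with medians of 0.19 for the brightest and 0.23 for the dimmest.

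Ribosomal proteins that carry other names were looked up separately. Fau and Rpsa, of the cytosolic small subunit, differed by 0.096 and 0.045, and by -0.042 and 0.052 without descending replicate 1, so that the sign of Fau turned on that array. All 5 measured mitochondrial ones had a higher mean in ascending aorta, with a median difference of 0.11, and 0.058 without descending replicate 1. Gadd45gip1, a protein at the exit of the mitochondrial tunnel, was at 10.525, 10.476 and 10.513 in ascending aorta, against 10.003, 10.197 and 10.322 in descending aorta, a difference of 0.33 ± 0.096. Chchd1 was at 9.30, 9.26 and 9.27 in ascending aorta, against 8.69, 8.71 and 9.15 in descending aorta, a difference of 0.43 ± 0.13. Dap3, a GTP-binding small subunit protein, differed by 0.019 with overlapping groups.

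Genes that serve ribosomes without being part of them were closer to the level of all genes. Elongation factors and other TOP messages had a median difference of 0.062 (13 of 17 with a higher mean in ascending aorta), 0 of them past an unadjusted p of 0.05 in limma. Genes of ribosome assembly and ribosomal RNA synthesis had a median of 0.014 (17 of 32), and the single one past that p was Dkc1, the pseudouridine synthase dyskerin, with a difference of -0.28 ± 0.080. Regulators of ribosomal protein production, such as Mycn, Max, Rheb and Tsc1, had a median of -0.043 (4 of 13), with 0 past that p. Without descending replicate 1 these medians were 0.031 for the TOP messages, -0.032 for assembly and 0.038 for the regulators, so that the signs of assembly and of the regulators turned on that array. Naca, a chaperone of nascent chains whose message is a TOP message, was at 12.32, 12.43 and 12.18 in ascending aorta, against 11.58, 12.22 and 12.13 in descending aorta. It resembled the ribosomal proteins in its low value on descending replicate 1. That array was the lowest for 10 of the 17 TOP messages, 13 of the 32 assembly genes and 2 of the 13 regulators, against 15.7% of all genes.

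The mitochondrial helpers gave similarly small medians. Translation factors and assembly proteins of the mitochondrion had a median difference of 0.054 (13 of 20 with a higher mean in ascending aorta, 0 past an unadjusted p of 0.05), aminoacyl-tRNA synthetases of 0.041 (11 of 16), and genes for transcription of the mitochondrial genome of 0.033 (7 of 12). In the same order, the medians were 0.0087, 0.034 and 0.042 without descending replicate 1. That array was the lowest for 8 of the 20, 5 of the 16 and 3 of the 12 genes, against 15.7% of all genes. At an unadjusted p of 0.05, the synthetase genes Pars2 (0.21) and Ears2 (0.24) and the single-strand binding protein gene Ssbp1 (0.30) were higher and the polymerase gene Polg (-0.24) was lower in ascending aorta. None of these passed the adjusted test (adjusted p = 0.53 for each).

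Complex I of the respiratory chain, whose mitochondrial subunits these ribosomes translate, was closest to the ribosomal protein genes. Of 35 nuclear complex I genes, 33 had a higher mean in ascending aorta, with a median difference of 0.22, and 0.098 without descending replicate 1. That array was the lowest for 25 of the 35, against 15.7% of all genes. At an unadjusted p of 0.05, 9 were higher in ascending aorta, against 3.96% of all genes, and 0 were lower, against 5.33%. Ndufb8, an accessory subunit, was at 10.63, 10.70 and 10.34 in ascending aorta, against 9.65, 10.01 and 10.20 in descending aorta, a difference of 0.60 ± 0.16. Whether these lists differ from the ribosomal protein genes was not tested.

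Markers of cell types also differed between the segments, and their part in the ribosomal protein results was not tested. All 9 endothelial markers had a lower mean in ascending aorta, with a median difference of -0.43 and mean log2 levels of the list at 10.32 to 10.87 on ascending and 10.95 to 11.17 on descending arrays. All 8 markers of mesothelium and epicardium had a higher mean, with a median of 1.05 and levels of 8.86 to 10.1 on ascending and 8.42 to 8.76 on descending arrays. All 10 cardiac muscle markers had a higher mean, with a median of 0.25 and levels of 8.63 to 9.34 on ascending and 8.29 to 8.73 on descending arrays. The 8 smooth muscle markers had a median of -0.060 and levels of 10.86 to 11.20 on ascending and 11.05 to 11.08 on descending arrays. Descending replicate 1 was the highest array for 7 of the 9 endothelial markers, against 31.7% of all genes. The list's median distance from the gene means was 0.33, 0.15 and 0.095 on descending replicates 1 to 3. That array was the lowest for 6 of the 8 mesothelial and epicardial markers, against 15.7% of all genes. The median distance of these markers was -0.70, -0.62 and -0.43 on descending replicates 1 to 3. The medians of the other 6 marker lists lay between -0.31 for macrophages and 0.26 for lung and gut epithelium. For Upk1b, a mesothelial marker, ascending replicates 1 to 3 gave 10.204, 10.326 and 8.002 and the descending arrays 7.435, 7.590 and 7.673.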

How the data were processed

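Total RNA of 3 ascending and 3 descending aorta samples was hybridised to Affymetrix arrays as biotinylated cRNA, per the labels' protocols. The values are log2 expression of 35556 probe sets as deposited by the authors, and the submitters' processing notes name RMA and Partek 6.6 without settings. A genome build for the probe sets is not stated by the labels. That the scale is log2 follows from the deposited values themselves (2.53 to 14.6, array medians 7.14 to 7.22). RMA equalises the arrays and shrinks differences of dim probe sets. The number of arrays limits the precision.

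The platform's gene annotation gave 1 symbol to 21789 probe sets, several to 1621 and none to 12146, and 0 symbols changed when 21698 were matched to RefSeq. Probe sets with several symbols were left out, and the brightest of each gene was kept, which gave 19938 genes. Limma 3.58.1 (lmFit, then eBayes; R 4.3.3) gave the two-sided test of ascending minus descending, and p-values were adjusted over the 19938 genes by the Benjamini-Hochberg method. No permutation test was run, because the smallest exact p for 3 against 3 arrays is 0.1. Medians over gene sets are descriptions without a test. In 5 simulated data sets with 200 changed genes, limma found 81.8% of the log2 changes of 1 and 97.4% of those of 2, with 2.78% false calls. The simulation held no smaller changes and no array that stood apart. It therefore does not show how often differences as small as those of most members would be found. The members, comparison lists and tests were chosen with earlier results of these data known.

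Named members are, per subunit, the 5 with the smallest p and the extremes of signal, with paralogs, X-linked members, stalk genes and a few well-known genes. Comparison lists are named by up to 4 genes with the smallest p. Mrpl14, Mrps27, Mrpl49, Rps18, Rpl23a, Rps2, Dap3, Hoxc6, Xist, Kdm5d, Uty, Eif2s3y and Acta2 were added after their values were seen. Replicate numbers were not taken to pair the samples. Deviations of same-numbered arrays correlated at -0.080, -0.055 and 0.024, which gave no sign of pairing but cannot exclude it. Promoters came from RefSeq for GRCm38.p6. Tables and plots were made in Python 3.11.15 (pandas 2.3.3, matplotlib 3.10.9).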

Additional observations from a re-analysis of the deposited data

How the results depend on the processing

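Over the 16 alternatives run, the differences of the 21 named members of the subunit classes kept their sign in every case, and 3 values passed the test where they had not before: Mrps28 without ascending replicate 3 and with descending replicate 1 left out as well, and Mrpl14 without ascending replicate 3. Those members were picked by p-values of these data. Changes of the variance model, the expression filters and the replicate block cannot alter a gene's difference, so those runs could not change a sign. Leaving out each array in turn gave medians of 0.077 to 0.24 for the cytosolic and 0.12 to 0.24 for the mitochondrial genes, 0.055 to 0.23 (cytosolic large), 0.10 to 0.27 (cytosolic small), 0.11 to 0.24 (mitochondrial large) and 0.16 to 0.25 (mitochondrial small), each lowest without descending replicate 1. In the same runs 0 to 933 genes were called in all, 0 to 2 mitochondrial and 0 cytosolic members. With ascending replicate 3 and descending replicate 1 both left out, 469 genes and 1 mitochondrial member were called, and the medians were 0.034 (cytosolic large), 0.091 (cytosolic small) and 0.10 (mitochondrial large). Array weights were lowest for ascending replicate 2 (0.57), descending replicate 1 (0.58) and ascending replicate 3 (0.63). They gave medians of 0.11 for the cytosolic genes, 0.079 for their large subunit and 0.17 for the mitochondrial genes. The cause of these shifts was not tested. The pairing by replicate number had no support in the arrays, and with the replicate number as a block 0 genes were called. The medians did not move, since a block leaves the differences unchanged in this balanced design.

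The share of promoters with a pyrimidine run at the start moved with the definition for cytosolic, mitochondrial and all promoters. A minimum of 4 bases gave 62.7%, 66.2% and 48.7%, a minimum of 8 bases gave 27.1%, 6.76% and 8.23%, a start within 5 bases gave 35.6%, 23.0% and 18.8%, and a start within 20 bases gave 72.9%, 58.1% and 49.7%, in that order, so the cytosolic share was the lower of the families at a minimum of 4 bases.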

Other observations

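Replicate spread differed between the segments in opposite ways for the ribosomal protein genes and for all genes. The median SD over the cytosolic genes was 0.086 on the ascending and 0.16 on the descending arrays, and 0.057 on the descending arrays without replicate 1. For all genes it was 0.12 on the ascending and 0.10 on the descending arrays, and 0.064 without descending replicate 1. Descending replicate 1 was the highest array for 0 of the 62 cytosolic genes and for 31.7% of all genes.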
